A study of Homo sapiens with 4 samples.

Results

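Nucleotide supply for DNA synthesis was followed through 9 genes that make deoxynucleotides or take them apart: RRM1, RRM2, RRM2B, CTPS1, TYMS, DUT, TK1, DCK and SAMHD1. They were chosen by name, with earlier results of these data known, from the 61228 gene rows of each count table. All 9 were present and passed the filter on low counts. The cells were H1792, an established human lung cancer line labelled as wild type (WT). They had been kept for 96 h with the solvent DMSO (2 libraries) or with ACBI1 at a dose that the labels write as 1 mM (2 libraries), a unit that the counts cannot check. ACBI1 is a PROTAC that sends the SWI/SNF ATPases SMARCA2 and SMARCA4, and PBRM1, to VHL-dependent degradation. It acts on proteins, so the transcripts of its targets do not check the treatment. All 4 libraries share 1 line, and the labels do not say whether replicates were separate cultures, so p-values measure the spread between these samples, which may be technical.

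Cells copy their genome from deoxynucleoside triphosphates (dNTPs), whose pools are small and are built up as S phase begins. Ribonucleotide reductase, a large subunit RRM1 paired with a small subunit RRM2 or RRM2B, turns ribonucleotides into deoxyribonucleotides. TYMS makes thymidylate from deoxyuridylate, DUT supplies that deoxyuridylate by destroying dUTP, TK1 and DCK recover nucleosides, and SAMHD1 hydrolyses surplus dNTPs. Several of these genes are textbook targets of E2F transcription factors, and RRM2B is known as a p53-inducible gene.

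The bases before the start sites of 5 of these genes are shown for the short words read by factors known from S phase promoters. TYMS, DUT and TK1 were called higher in the counts below, and RRM2 and SAMHD1 were not called. DCK and RRM1 were also called higher and are not printed. The 5 were picked with these changes known, so their words cannot be set against the changes. Each stretch is the 150 bases before the most downstream start that RefSeq lists (GRCh38.p14), written 5′ to 3′ on the gene's strand. Capitals mark CCAAT, the word bound by NF-Y, and any of 4 words of the E2F type, TTTCGCGC, TTTGGCGC, TTTCCCGC and TTTGCCGC, on either strand.
TYMS, chr18:657503-657652, + strand: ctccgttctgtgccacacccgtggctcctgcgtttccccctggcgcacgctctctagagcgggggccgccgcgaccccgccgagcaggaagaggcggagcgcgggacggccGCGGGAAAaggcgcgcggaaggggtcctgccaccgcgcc
DUT, chr15:48332047-48332196, + strand: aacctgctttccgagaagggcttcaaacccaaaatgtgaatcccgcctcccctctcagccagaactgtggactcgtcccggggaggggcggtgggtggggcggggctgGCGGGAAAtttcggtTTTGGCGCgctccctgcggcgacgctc
TK1, chr17:78187053-78187202, - strand: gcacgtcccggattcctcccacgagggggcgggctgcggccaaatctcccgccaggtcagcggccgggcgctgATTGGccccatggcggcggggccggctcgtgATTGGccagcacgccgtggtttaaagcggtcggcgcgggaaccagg
RRM2, chr2:10122589-10122738, + strand: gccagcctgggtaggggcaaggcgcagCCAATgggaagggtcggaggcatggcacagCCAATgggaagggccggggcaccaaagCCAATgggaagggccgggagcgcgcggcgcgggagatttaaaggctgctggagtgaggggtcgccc
SAMHD1, chr20:36951709-36951858, - strand: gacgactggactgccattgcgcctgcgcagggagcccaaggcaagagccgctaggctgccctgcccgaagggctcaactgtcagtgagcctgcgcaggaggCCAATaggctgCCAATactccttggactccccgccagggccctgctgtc

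TYMS held 1 E2F word, 39 to 32 bases before its start, and DUT held 2, the nearer at 27 to 20 bases. RRM2 held CCAAT at 3 places and TK1 and SAMHD1 at 2 each. Over the 250 bases before each listed start, 8 of the 9 genes had at least 1 window in the RefSeq table, 14 windows in all. An E2F word was in 2 of these 14 windows, against 2.79% of all 35116 windows, and CCAAT was in 5 of 14, against 32.0% of all windows. The words TTTGAA or TTCGAA, part of the CHR element of cell cycle genes, were in 2 of the 14 windows (RRM1 and DUT), the same share as the 14.3% of all windows. RRM1 also held 1 CCAAT, while the windows of DCK and CTPS1 held none of the 3 kinds of word. These are letter matches only. Binding was not measured here.

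Gene counts summed to between 64281850 and 86010100 per library. A member's count lay between 814 (DCK in DMSO replicate 2) and 13878 (TYMS in ACBI1 replicate 1), so that the 95% exact Poisson interval of any of these counts reached at most 7.11% above it, which covers counting error only. Levels below are CPM, a gene's count divided by the scaled library size and brought to a common total. Pearson's r of log2 CPM across genes, which are not independent replicates, was 0.983 and 0.986 within groups and 0.928 to 0.948 between them. Of 10 lung and epithelial markers, NKX2-1 was at 0 counts in every library, SFTPC had 1 count in all, and CDH1, NAPSA and SFTPB had 4 to 17 counts in each library. KRT19 was at 0.503 to 5.00 CPM, EPCAM at 2.78 to 15.6 CPM and KRT7, KRT8 and KRT18 at 58.7 to 680 CPM. Summed immune markers were at 0.153 to 0.222 CPM in every library.

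Of the 9 genes, 5 rose with ACBI1 and none fell: TYMS, TK1, DCK, DUT and RRM1, at an edgeR quasi-likelihood adjusted p under 0.05, which is what "called" means below. Over all 19159 genes tested, 17.4% were called, 6.75% higher and 10.6% lower (1294 and 2037 genes, or 1755 and 1866 with scaling by library size only). The ACBI1 libraries lay above both DMSO libraries for 7 of the 9 genes, a separation that 31.1% of all tested genes had in this direction and 63.2% in either. More cells in S phase and more transcript per cell cannot be told apart in these bulk libraries. The median log2 change of the 9 was 0.82, beside 0.01 over all tested genes. At an unadjusted p under 0.05 there were 6 (RRM2 added), beside 33.9% of all tested genes. RRM2 and CTPS1 were higher in both ACBI1 libraries without being called, and RRM2B and SAMHD1 overlapped between the groups. The number called was 7 without DMSO replicate 1, 4 without DMSO replicate 2, 2 without ACBI1 replicate 1 and 3 without ACBI1 replicate 2. TYMS and TK1 were called in each of these fits. Over all tested genes too, fewer were called without an ACBI1 library than without a DMSO library.

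**Figure D1:**
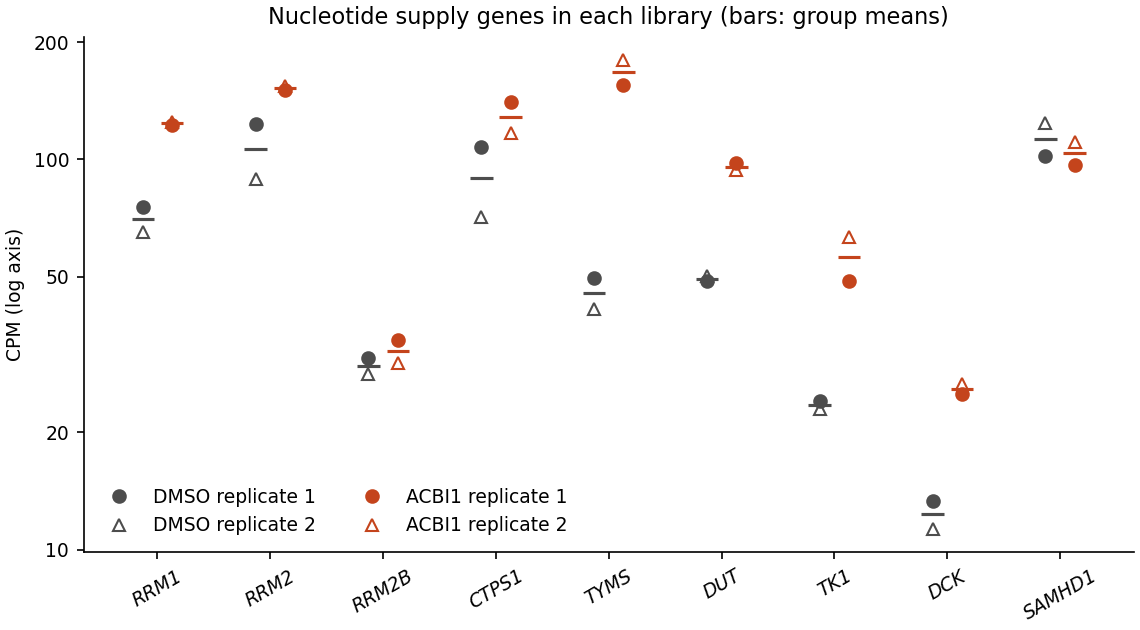
CPM (log axis) of the 9 nucleotide supply genes in each of the 4 libraries, DMSO in grey and ACBI1 in orange, with bars at the group means. The ACBI1 libraries lie above both DMSO libraries for 7 genes and overlap with them for RRM2B and SAMHD1.

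TYMS, thymidylate synthase, is the only de novo source of thymidylate and the target of fluorouracil (chr18:657604-673578 in GENCODE 29, GRCh38, + strand). It was at 49.7 and 41.3 CPM in DMSO replicates 1 and 2 and at 155 and 180 CPM in ACBI1 replicates 1 and 2. Both ACBI1 libraries stood well above the DMSO libraries. The log2 change was 1.88 (SE 0.18, n = 2 per group, edgeR adjusted p 0.00384), a 3.68-fold rise, the largest of the 9. It was 1.75 to 2.02 with 1 library left out.

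ENOSF1, on the opposite strand, and the divergent transcript TYMSOS together overlap 46.6% of the exonic length of TYMS, and the strand setting of the counting is not given in the sources used here. ENOSF1 was at 62.2 and 33.5 CPM with DMSO and at 59.2 and 53.5 CPM with ACBI1. The groups overlapped, and its log2 change of 0.24 (SE 0.29, adjusted p 0.621) was not called, except without DMSO replicate 1 (0.76, adjusted p 0.0363). TYMSOS was at 1.28 and 1.43 CPM with DMSO and at 3.32 and 4.22 CPM with ACBI1, and it rose by a log2 change of 1.48 (adjusted p 0.0301). That call was lost with any library left out (adjusted p 0.0532 to 0.117). With the counts of the 3 genes summed into 1 feature, the log2 change was 1.26 (adjusted p 0.0181), so the summed feature was also called, with a smaller change. The ratio of TYMS to ENOSF1 counts within a library was 0.798 and 1.23 with DMSO and 2.62 and 3.36 with ACBI1.

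DUT, dUTP pyrophosphatase, keeps uracil out of DNA and makes the substrate of TYMS (chr15:48331011-48343373, + strand). It was at 48.7 and 50.3 CPM with DMSO and at 97.8 and 94.0 CPM with ACBI1. The replicates lay closer together than those of TYMS, and the groups were far apart. The log2 change was 0.95 (SE 0.15, edgeR adjusted p 0.0117), a 1.94-fold rise. Without ACBI1 replicate 1 it was 0.93 and no longer called (adjusted p 0.0585; 0.0115 to 0.0451 with another library left out). DUT encodes a nuclear and a mitochondrial form from separate starts, and gene counts do not tell them apart. Its pseudogene rows added at most 0.504% to a DUT count.

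TK1, cytosolic thymidine kinase, phosphorylates salvaged thymidine and is a serum marker of proliferation (chr17:78174075-78187233, - strand). Its level was 24.0 and 22.9 CPM with DMSO and 48.9 and 63.3 CPM with ACBI1. Both treated libraries were above both controls, with the wider spread among the treated ones. The log2 change was 1.26 (SE 0.18, adjusted p 0.0104), a 2.39-fold rise, with 1.05 to 1.44 when a library was left out. No exon of another gene overlaps TK1.

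DCK, deoxycytidine kinase, phosphorylates deoxycytidine, deoxyadenosine and deoxyguanosine and activates drugs such as gemcitabine and cytarabine (chr4:70992538-71030914, + strand). Its level was 13.3 and 11.3 CPM with DMSO and 25.1 and 26.5 CPM with ACBI1. The groups did not overlap, and the log2 change was 1.07 (SE 0.19, adjusted p 0.0167), a 2.09-fold rise. DCK lost its call without ACBI1 replicate 1 (adjusted p 0.0667) and without ACBI1 replicate 2 (adjusted p 0.0743), with log2 changes of 1.11 and 1.02. Without a DMSO library the adjusted p was 0.00750 or 0.0330. Both cytosolic salvage kinases therefore rose, and the TK1 to DCK ratio within a library, 1.80 and 2.03 with DMSO and 1.95 and 2.39 with ACBI1, overlapped between the groups.

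RRM1 carries the catalytic and allosteric sites of ribonucleotide reductase (chr11:4094707-4138876, + strand). It was at 75.7 and 65.2 CPM with DMSO and at 123 and 125 CPM with ACBI1. The treated replicates nearly coincided and stood above both controls. The log2 change was 0.82 (SE 0.16, edgeR adjusted p 0.0229), a 1.76-fold rise, and it was the called member with the smallest change. The call was lost without DMSO replicate 2, ACBI1 replicate 1 or ACBI1 replicate 2 (adjusted p 0.0681, 0.0913 and 0.0933) and kept without DMSO replicate 1 (adjusted p 0.0130).

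RRM2, the small subunit that peaks in S phase and is degraded later in the cycle, was the highest of the 9 per transcript length in DMSO cells (chr2:10120698-10131419, + strand). It was at 123 and 89.1 CPM with DMSO and at 151 and 154 CPM with ACBI1. The groups did not overlap, but the DMSO replicates differed by more than the treated ones did. The log2 change was 0.52 (SE 0.20, adjusted p 0.128), which was not called. With 1 library left out, RRM2 was called without DMSO replicate 1, the higher control, with a log2 change of 0.78 (adjusted p 0.0338); it was 0.30 to 0.55 without another library (adjusted p 0.301 to 0.475). Another gene overlaps 20.2% of its exonic length, and its pseudogene rows added at most 0.172% to a count.

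RRM2B, the small subunit that serves repair and mitochondrial DNA outside S phase and lies on chromosome 8, was at 31.0 and 28.2 CPM with DMSO and at 34.5 and 30.1 CPM with ACBI1. The groups overlapped, and the log2 change was 0.13 (SE 0.17, adjusted p 0.641). The 2 small subunits can be set against each other and against RRM1 within a library, where scaling plays no part. RRM2 counts were 3.98 and 3.16 times those of RRM2B with DMSO and 4.36 and 5.13 times with ACBI1, so the ratio was higher in both treated libraries, by 1.33-fold. RRM2 counts were 1.63 and 1.37 times those of RRM1 with DMSO and 1.23 and 1.23 times with ACBI1, lower in both treated libraries, at 0.824 of the DMSO ratio. The smallest p of an exact permutation test of 2 against 2 libraries is 1 in 3, so no test was run on the ratios.

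CTPS1, CTP synthase, makes CTP from UTP and is needed by dividing lymphocytes (chr1:40979335-41012565, + strand). Its level was 108 and 71.4 CPM with DMSO and 140 and 117 CPM with ACBI1. The lower treated library lay just above the higher control. The log2 change of 0.52 (SE 0.24, adjusted p 0.180) was not called. Without DMSO replicate 1 it was 0.85 and called (adjusted p 0.0247), and without DMSO replicate 2 it was 0.25 (adjusted p 0.577). Its paralog CTPS2 was at 62.9 and 67.9 CPM with DMSO and at 70.3 and 57.3 CPM with ACBI1, with no call (log2 change -0.04, or 0.05 with scaling by library size only; adjusted p 0.907 and 0.860).

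SAMHD1, the dNTP triphosphohydrolase that lowers dNTP pools outside S phase and restricts HIV in myeloid cells, was the member with a negative log2 change (chr20:36889773-36951901, - strand). It was at 102 and 124 CPM with DMSO and at 96.5 and 111 CPM with ACBI1. The groups overlapped. The log2 change was -0.12 (SE 0.18, adjusted p 0.678), or -0.04 with scaling by library size only (adjusted p 0.902) and 0.02 without DMSO replicate 2 (adjusted p 0.973). The 4 synthesis and salvage genes with the largest changes, TYMS, TK1, DCK and DUT, rose by log2 changes of 0.95 to 1.88, and the difference between these and SAMHD1 was not tested.

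**Figure D2:**
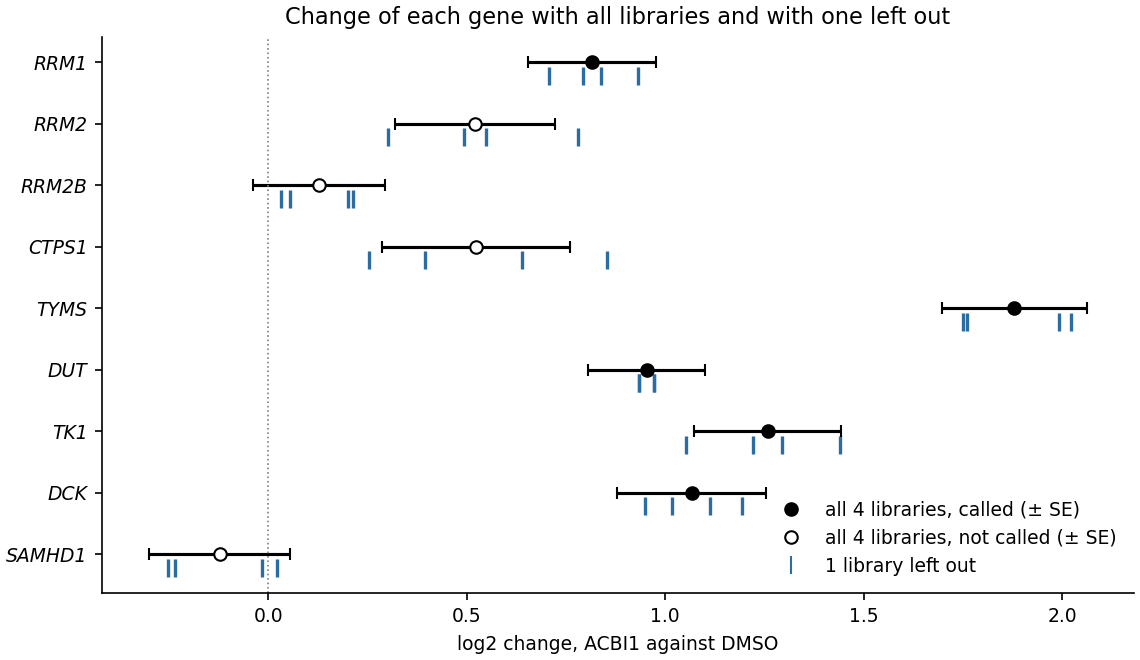
Log2 change of the 9 genes (circles, with the SE as bars, filled where called) and the log2 change with 1 library left out (blue ticks). TYMS lies at 1.88 and SAMHD1 at -0.12, and the ticks of RRM2 and CTPS1 spread from 0.30 to 0.78 and from 0.25 to 0.85.

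Levels can be compared between genes only per length, here as CPM per kilobase of the longest principal transcript in GENCODE 29. With DMSO, RRM2 was at 31.0 ± 7.05, CTPS1 at 27.9 ± 7.98, TYMS at 27.4 ± 3.54, DUT at 23.1 ± 0.518, RRM1 at 22.9 ± 2.41 and SAMHD1 at 21.3 ± 2.93 CPM per kb (SD, n = 2). The replicates of neighbours in that order overlapped, except that both of TYMS lay above both of DUT. TK1 (14.4 ± 0.467), RRM2B (6.001 ± 0.406) and DCK (4.54 ± 0.523) followed, each with both replicates under those of the gene before it. With ACBI1, TYMS was the highest at 101 ± 10.5 CPM per kb, above both replicates of any other member. DUT, RRM2, RRM1, CTPS1 and TK1 lay between 34.5 and 44.7 CPM per kb on average, then came SAMHD1 at 19.6 ± 1.93, DCK at 9.50 ± 0.364 and RRM2B at 6.55 ± 0.634. DCK thus ranked under RRM2B with DMSO and over it with ACBI1. With total exonic length in place of the transcript, RRM2 stayed the highest with DMSO and TYMS with ACBI1, while CTPS1 moved from the second to the seventh place with DMSO.

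Outside the 9 genes, 72 other genes of nucleotide metabolism were listed in 6 groups, and 71 of them could be tested. Of these, 13 rose and 2 fell, in all 15 of 71, against 17.4% of all tested genes called (6.75% higher and 10.6% lower). An unadjusted p under 0.05 was found for 35, against 33.9% of all tested genes. The median log2 change of the 71 was 0.46. The number called was 28 without DMSO replicate 1, 12 without DMSO replicate 2, 5 without ACBI1 replicate 1 and 4 without ACBI1 replicate 2. Calls over all tested genes were also fewer without an ACBI1 library than without a DMSO library. NUDT1, DCTPP1 and NME4 were called in each of those 4 fits. DHODH lost its call only without ACBI1 replicate 1 and CDA only without ACBI1 replicate 2, and the other calls were lost in at least 2 of the 4 fits.

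Over all tested genes, 6.75% were called higher and 10.6% lower, and the counts of each group stand beside these shares. De novo pyrimidine synthesis, which ends in the UTP that CTPS1 uses, had 1 of 4 genes called higher and a median log2 change of 0.70. DHODH, the mitochondrial dehydrogenase of that route, rose from 38.8 and 21.1 CPM to 87.9 and 74.3 CPM, a log2 change of 1.44 (SE 0.30, adjusted p 0.0272). CAD, the enzyme of the first steps, was at 277 and 174 CPM with DMSO and at 421 and 420 CPM with ACBI1, and its log2 change of 0.90 was not called (adjusted p 0.0570), though it was called in 4 of 6 alternative fits and without DMSO replicate 1. De novo purine synthesis had 5 of 13 genes called higher, none lower and a median of 0.63. PFAS rose from 102 and 60.8 CPM to 188 and 198 CPM, a log2 change of 1.24 (adjusted p 0.0280). GART had a log2 change of 1.00, PAICS one of 0.95, PPAT, the committing step, one of 0.79 and IMPDH1, which turns the route towards guanine nucleotides, one of 0.73 (adjusted p 0.0308 to 0.0384).

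The thymidylate and folate cycle group feeds TYMS with one-carbon units and carries its product on to dTTP. It had 3 of 14 genes called higher, 1 lower and a median of 0.59, beside 6.75% higher and 10.6% lower of all tested genes. SLC19A1, the reduced folate carrier, rose by 0.84 on the log2 scale (adjusted p 0.0402), MTHFD1, the cytosolic folate enzyme, by 0.77 (adjusted p 0.0285) and DTYMK, thymidylate kinase, by 0.64 (adjusted p 0.0441). SHMT2, the mitochondrial serine hydroxymethyltransferase, fell from 441 and 349 CPM to 192 and 236 CPM, a log2 change of -0.89 (SE 0.20, adjusted p 0.0348).

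Enzymes that cleanse the nucleotide pool included the 2 largest called rises of the 71. NUDT1 (also known as MTH1), which removes oxidised purine triphosphates, rose from 25.4 and 26.7 CPM to 71.4 and 86.7 CPM, a log2 change of 1.603 (SE 0.17, adjusted p 0.00461). DCTPP1, which hydrolyses dCTP and its modified forms, rose from 19.96 and 20.003 CPM to 48.5 and 64.4 CPM, a log2 change of 1.499 (SE 0.19, adjusted p 0.00738). Exons of ZNF771 cover 42.1% of its exonic length. These were the called genes among 13 tested hydrolases and nucleotidases, and the median of that group was 0.46. For this group and the next, 6.75% of all tested genes were called higher. Among 13 kinases of mono- and diphosphates, the median was 0.07, and the nucleoside diphosphate kinases NME4, with a log2 change of 1.12 (adjusted p 0.0117), and NME1, with one of 0.98 (adjusted p 0.0223), rose. NME1 shares 18.6% of its exonic length with a read-through transcript to NME2.

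The other salvage genes had a median of 0.26, with none of 14 called higher and 1 lower, beside 6.75% and 10.6% of all tested genes. CDA, cytidine deaminase, was the single call, lower, at 0.982 and 1.45 CPM with DMSO and 0.268 and 0.107 CPM with ACBI1 (log2 change -2.65, adjusted p 0.0264). TK2 and DGUOK, the mitochondrial counterparts of TK1 and DCK, were not called. TK2 was at 105 and 114 CPM with DMSO and at 90.2 and 64.5 CPM with ACBI1 (log2 change -0.50, adjusted p 0.142). DGUOK was at 39.4 and 52.2 CPM with DMSO and at 37.1 and 47.0 CPM with ACBI1 (log2 change -0.12, adjusted p 0.729). Within a library the ratio of TK1 to TK2 counts was 0.228 and 0.201 with DMSO and 0.543 and 0.981 with ACBI1, and that of DCK to DGUOK was 0.338 and 0.217 with DMSO and 0.676 and 0.564 with ACBI1. Both ratios were higher in each treated library. Along with CTPS1 to CTPS2 (1.71 and 1.05 against 1.99 and 2.04) and TYMS to ENOSF1, they were chosen after the values were seen.

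**Figure D3:**
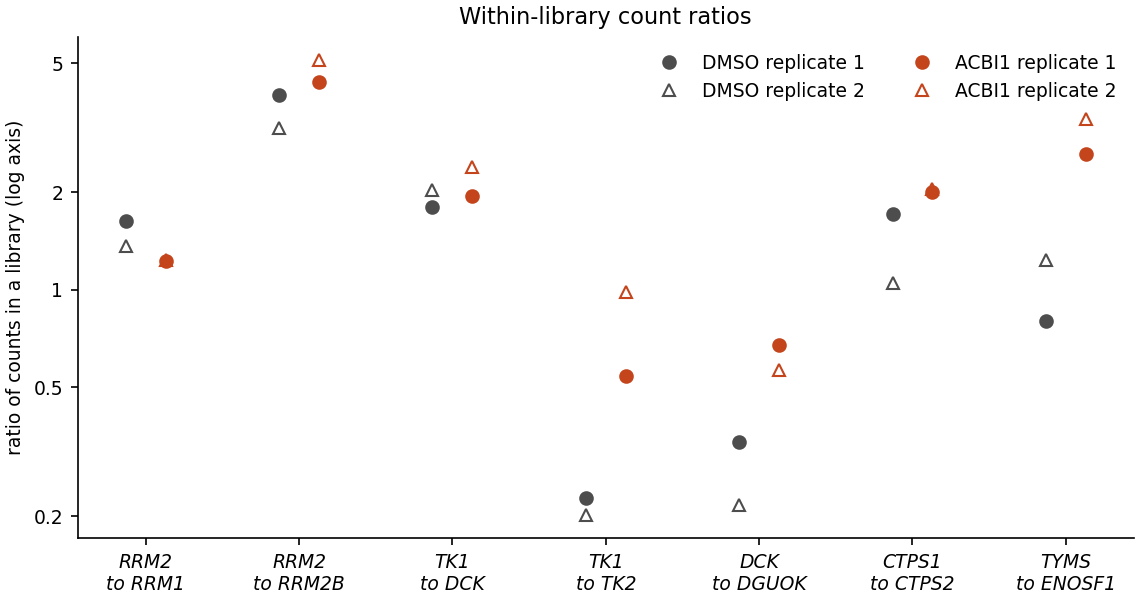
Ratio of the counts of gene pairs within each library (log axis), DMSO in grey and ACBI1 in orange. The TK1 to DCK ratio overlaps between the groups, and RRM2 to RRM1 is lower in both ACBI1 libraries (1.23 and 1.23 against 1.63 and 1.37).

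Cell cycle genes were listed beside the nucleotide supply genes. Of 15 S phase and replication genes, 12 were called higher, against 6.75% of all tested genes, and none lower, the median log2 change was 1.64, and their summed level was 594 to 726 CPM with DMSO and 1764 to 1838 CPM with ACBI1. CDC6, CCNE1 and CCNE2 were the 3 that were not called. E2F2 rose from 4.79 and 4.56 CPM to 38.7 and 41.6 CPM, a log2 change of 3.10 (SE 0.18, adjusted p 0.00141). E2F1, MCM3 and MCM5 had log2 changes of 1.93, 1.74 and 1.72, near the 1.88 of TYMS, and they and E2F2 were called with any library left out, while the other 8 members lay under the list's median. Of 12 G2 and mitosis genes, 10 lay higher in both ACBI1 libraries than in both DMSO libraries, beside 31.1% of all tested genes. An unadjusted edgeR p under 0.05 was found for 7 of the 12, beside 33.9% of all tested genes. Their median log2 change was 0.48, and 1 of the 12 was called, near the 6.75% of all tested genes called higher. It was UBE2C (log2 change 0.99, adjusted p 0.0384, called only without DMSO replicate 1 when a library was left out). The part of the cell cycle in the changes of the 9 genes was not tested.

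RRM2B answers to p53, and the RRM2 and TK1 proteins are removed by ubiquitin ligases, so genes of both kinds were listed. Of 17 tested p53 target genes, 5 fell and 1 rose, against 10.6% called lower and 6.75% called higher of all tested genes. Their median was -0.42, beside the log2 change of 0.13 of RRM2B. CDKN1A, the CDK inhibitor p21, fell from 83.3 and 143 CPM to 13.7 and 24.1 CPM, a log2 change of -2.58 (SE 0.37, adjusted p 0.00980). GDF15 fell by 5.05 on the log2 scale (adjusted p 0.00540), and both were called with any library left out. TP53INP1 was at -3.09 (adjusted p 0.0441), and its call was lost without ACBI1 replicate 1 (adjusted p 0.0955). BTG2 was at -2.39 (adjusted p 0.0495) and was called in 3 of 6 alternative fits and in 1 of 4 with a library left out, at -1.06 without DMSO replicate 2. Of 5 genes listed with the turnover of RRM2 and TK1 proteins, SKP2 (log2 change 0.90, edgeR adjusted p 0.0348) and the kinase CDK2 (0.94, adjusted p 0.0153) rose. The share called higher over all tested genes was 6.75%. CDK2 lost its call without ACBI1 replicate 1, and SKP2 without DMSO replicate 2 or ACBI1 replicate 2, while the median of the 5, 0.68, was 0.31 without ACBI1 replicate 2. CCNF and FZR1, whose products direct ubiquitin ligases to RRM2 and TK1, had log2 changes of 0.33 and -0.06 and were not called. Removal of the RRM2 and TK1 proteins was not measured.

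Genes listed as markers of fibroblasts, endothelial cells and epithelial cells also differed between the groups of H1792 libraries. The counts of falls below stand beside 10.6% of all tested genes called lower. Of 6 fibroblast markers, 4 fell. The 6 summed to 1001 and 1979 CPM with DMSO and to 88.1 and 272 CPM with ACBI1. COL1A2 and COL1A1 had the largest shares of these sums, but COL1A1 was not called (log2 change -1.90, edgeR adjusted p 0.0860). Of 4 endothelial markers, 2 of the 3 tested fell, with a summed level of 12.7 and 49.0 CPM against 0.123 and 0.107 CPM. PECAM1 made up most of the DMSO sums, at 12.2 and 48.1 CPM, and was at 1 and 3 counts with ACBI1. Epithelial markers summed to 982 and 1035 CPM with DMSO and to 323 and 202 CPM with ACBI1, with 4 of 6 tested falling. The 4 were the keratins KRT7, KRT8, KRT18 and KRT19. EPCAM went the other way, from 5.38 and 2.78 CPM to 15.6 and 4.84 CPM, with overlapping groups and no call (log2 change 1.32). The part of all these markers in the changes of the nucleotide supply genes was not tested. SMARCA4 was at 284 and 216 CPM with DMSO and at 414 and 398 CPM with ACBI1, and SMARCA2 at 22.8 and 24.4 against 17.5 and 18.4 CPM. Neither was called (log2 changes 0.70 and -0.40, adjusted p 0.0583 and 0.163), though SMARCA4 was called in 5 of 6 alternative fits.

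Profiles over the 4 libraries were also compared, with likeness measured as the root mean square difference of log2 CPM centred on each gene's mean, among the 11151 other genes whose mean reached 5 CPM. PIGW (0.012), TMEM267 (0.013) and CHAC2 (0.019) were nearest to RRM2, and LEPROTL1 (0.0093), NDUFB3 (0.017) and UQCRB (0.018) were nearest to SAMHD1. With 4 libraries in 2 groups, such nearness says little more than that the genes share a change and its spread.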

How the data were processed

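RNA-seq reads per gene were analysed from 4 H1792 libraries, 2 with DMSO and 2 with ACBI1, grouped and numbered from the sample titles. The deposited values are raw counts per gene symbol that the authors did not normalize. The submitters' processing notes name TopHat2 2.1.1, HTSeq 0.11.0 and hg38, and the annotation, counting mode and strand setting are not given in the sources used here. Per the labels' protocols, total RNA was extracted and the library kit named is one for DNA.

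The 5 lines for reads given to no gene entered neither library sizes nor tests, and genes held 84.6% to 86.1% of the listed reads. Genes were filtered with filterByExpr (minimum count 10, minimum total 15), scaled by TMM and tested with edgeR 4.0.16 (glmQLFit, glmQLFTest, two-sided, treatment only) in R 4.3.3, with Benjamini-Hochberg adjustment over the 19159 genes tested. SE is the log2 change divided by the square root of F, and ± is the SD of CPM. Lengths, positions and exon overlap came from GENCODE 29, matched by symbol, and promoters from RefSeq. With 1 library left out, the lone library of its group is assumed to vary like the other group. Alternatives were other scalings, filters, DESeq2 1.42.0, limma-voom (limma 3.58.1), stricter thresholds, summed overlapping or pseudogene counts, a replicate block, and each library left out. The edgeR fit was tested on simulated counts with 200 of 18642 genes changed. It called 20.4% of the genes given a log2 change of 1 and 77.3% at a log2 change of 2. In the data 17.4% of tested genes were called, so the adjustment was stricter in the simulation and these shares do not carry over. The members and gene lists were chosen with earlier results of these data known. The text names the members, genes that share their loci, at most the 4 called genes of each list with the largest change (IMPDH1, CAD, TK2, DGUOK, COL1A1, CCNF, FZR1, CDC6, CCNE1, CCNE2 and the cell type markers that were not called were added after their values were seen), and the 3 genes nearest to RRM2 and SAMHD1.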

Additional observations from a re-analysis of the deposited data

How the results depend on the processing

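The same 5 of the 9 genes were called under both other scalings, both other filters, DESeq2, limma-voom and with pseudogene or overlapping counts summed. At a threshold of 0.01, 1 was called (TYMS), and with a minimum log2 change of 1, 3 were. With 1 library left out, 2 to 7 of the 9 and 4 to 28 of the other nucleotide genes were called. Of those other genes, 15 were called with all libraries, 34 without a filter, 28 with DESeq2, 2 at a threshold of 0.01 and 7 with a minimum log2 change of 1. With the replicate number as a block, 7 of the 9 (RRM2 and CTPS1 added, adjusted p 0.0133 and 0.00750) and 49 of the other nucleotide genes were called, and 7909 genes in all against 3331. The labels do not say that a number marks a shared batch. Deviations from the group means correlated at 0.442 between libraries of the same number, with only 2 pairs. Without a filter 5518 genes were called in all, and 1379 to 4292 with 1 library left out.

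The sign turned for genes that were not called with all libraries. With 1 library left out, SAMHD1 ran from -0.25 to 0.021, ENOSF1 from -0.15 to 0.76, CTPS2 from -0.18 to 0.094 and DGUOK from -0.31 to 0.091, and CTPS2 was at 0.053 with scaling by library size only. The causes were not tested. The differences in the 7 within-library ratios kept their sign with each library left out. For all of them but TK1 to DCK the groups did not overlap, so the sign could not have turned. Counting error reached at most 7.11% of a member's count, and 2 libraries per group limit the tests.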
